A study of Mus musculus with 4 samples.

Results

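The plasminogen activator system was described in the cerebral cortex through 8 genes: the activators Plau and Plat, the receptor Plaur, the serpin inhibitors Serpine2 and Serpini1, and the plasminogen-binding proteins Plgrkt, Anxa2 and S100a10. They were picked by symbol, each symbol had 1 row, and together they were 8 of the 32285 rows of the count matrices. Single-nucleus RNA sequencing had been performed on the cortex of GCLC-KO mice, in which the floxed Gclc gene, coding for the catalytic subunit that starts glutathione synthesis, is deleted by a CaMKII-Cre transgene active in excitatory neurons, on a C57BL/6N-derived background. There were 2 libraries from mice aged 3 months, 3M-1 with 3M-2, and 2 from mice aged 6 months, 6M-1 with 6M-2, each from 1 untreated mouse. Where 4 values are listed they follow this order. The labels give replicate 1 and replicate 2 of both ages as batch 1 and batch 2. Every mouse carried the deletion, so no level could be set against a mouse with intact Gclc. Pieces of cortex rich in rod-shaped microglia had been chosen, the nuclei were sorted on DAPI, and cytoplasmic RNA was largely lost with the lysis.

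Plau codes for urokinase (uPA) and Plat for tissue plasminogen activator (tPA), secreted proteases that cleave plasminogen into plasmin, which digests fibrin and matrix and activates growth factors. Plaur codes for uPAR, the membrane-anchored receptor that holds uPA at the cell surface. Serpine2 (protease nexin-1) inhibits uPA, tPA, plasmin and thrombin, whereas Serpini1 (neuroserpin) acts mainly on tPA and is known as a neuronal protein. Plgrkt is a transmembrane receptor for plasminogen, and Anxa2 with its light chain S100a10 forms a heterotetramer that binds plasminogen and tPA. In the brain, tPA is known for roles in synaptic plasticity and uPA with its receptor for roles in injury and axonal repair.

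On GRCm38, Plau (ENSMUSG00000021822) spans chr14:20836660-20843385 on the forward strand, Plat (ENSMUSG00000031538) chr8:22757727-22782844 on the forward strand, and Plaur (ENSMUSG00000046223) chr7:24462484-24475968 on the forward strand. Serpine2 (ENSMUSG00000026249) spans chr1:79794197-79861180 on the reverse strand, and Serpini1 (ENSMUSG00000027834) chr3:75557547-75643495 on the forward strand. Plgrkt (ENSMUSG00000016495) spans chr19:29348599-29367390 on the reverse strand, Anxa2 (ENSMUSG00000032231) chr9:69453620-69491795 on the forward strand, and S100a10 (ENSMUSG00000041959) chr3:93555080-93564643 on the forward strand. Serpini1 overlaps another annotated gene on its own strand, Gm37672, and Anxa2 overlaps the antisense gene Gm16144. Whether these overlaps affected their counts was not tested.

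The 250 bases before the annotated start are printed for the receptor Plaur and the inhibitor Serpini1 because, among the 6 cell classes described here, the first was highest in microglia and the second in neurons. The sequences are from RefSeq on GRCm38.p6, and capitals mark matches to any of 5 motifs searched on both strands: AP-1 (TGANTCA), CRE (TGACGTCA), PU.1 (GAGGAAGT), SP1 (GGGCGGG) and the TATA box (TATAAA).
Plaur, chr7:24462233-24462482, forward strand: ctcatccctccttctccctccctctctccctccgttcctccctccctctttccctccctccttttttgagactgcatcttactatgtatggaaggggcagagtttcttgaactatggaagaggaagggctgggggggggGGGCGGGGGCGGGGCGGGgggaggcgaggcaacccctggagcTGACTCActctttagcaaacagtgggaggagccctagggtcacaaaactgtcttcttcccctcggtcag
Serpini1, chr3:75557243-75557492, forward strand: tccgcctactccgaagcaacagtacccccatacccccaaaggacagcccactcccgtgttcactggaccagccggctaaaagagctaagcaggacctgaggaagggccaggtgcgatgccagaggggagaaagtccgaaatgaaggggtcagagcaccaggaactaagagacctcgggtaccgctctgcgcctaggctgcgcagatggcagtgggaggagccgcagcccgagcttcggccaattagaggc
The Plaur window held 1 AP-1 match, its first base 69 bases before the start, and 3 overlapping SP1 matches that begin 111, 105 and 100 bases before it. The Serpini1 window held none of the 5 motifs. Of 32851 RefSeq promoter windows of this length, 6.75% held AP-1, 1.55% CRE, 2.44% PU.1, 23.4% SP1 and 12.4% the TATA box, so a match is a description of the letters and not evidence of binding.

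Of 30784 deposited nuclei, 30515 were within the limits on detected genes and mitochondrial share, with 59262228 to 65894316 UMIs (molecules counted once by their barcode) per library. Marker genes, none of them among the 8, placed 25025 of these nuclei (82.0%) in a cell class, and the class names below stand for these gates. The classes compared held 13767 excitatory neurons, 3214 inhibitory neurons, 4386 oligodendrocytes, 818 oligodendrocyte precursors (OPCs), 208 astrocytes (36 to 77 per library) and 2057 microglia (354 to 684 per library). The 12 microglial gate markers summed to 11344 to 13938 CPM (UMIs per 1000000 UMIs of the same nuclei) in microglia and to 72.4 to 133 CPM in excitatory neurons. In 3M-2 a smaller share of nuclei were microglia (5.07%, against 8.13% to 10.3% elsewhere), and 83 of 93 nuclei with markers of granule neurons, which lie outside the cortex, came from it, while nuclei with striatal spiny neuron markers numbered 113 to 122 in the other libraries and 2 in 6M-2. Both kinds were left out of the neuronal classes. Gclc gave 33.5 to 42.3 CPM in excitatory and 37.4 to 45.8 CPM in inhibitory neurons, and because 3′ counting does not report the deleted part, these values do not check the deletion.

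To ask which cells could supply activator, receptor and inhibitor, UMIs were summed per library and class, expressed as CPM, and each class was compared with the mean of the other 5 by edgeR's quasi-likelihood test with the mouse as a block and Benjamini-Hochberg adjustment over 14222 genes. Plaur, Plau and Plgrkt were highest in microglia, Serpine2 in OPCs followed by astrocytes and microglia, Serpini1 in inhibitory and then excitatory neurons, and Plat in excitatory neurons and oligodendrocytes. All members but S100a10 passed the filter on low values. Plau and Plaur, near 0 elsewhere, could pass it only through microglia, so their calls in that class follow from the filter and are given as a description. In microglia 7 of the 7 tested members differed from the other classes, 5 higher and 2 lower, where 67% of all genes tested differed (32.4% higher and 34.6% lower). In excitatory neurons 5 differed (68.1% of all genes), in oligodendrocytes 5 (60.1%), in astrocytes 4 (30.5%), in inhibitory neurons 3 (61.9%) and in OPCs 1 (37.1%), with 7 members tested in each class. Plau and Plaur had a class with 0 UMIs in all 4 libraries, which leaves a fit over 6 classes without a finite term for that class, so outside microglia their tests give no usable value, and microglia were also compared with excitatory neurons alone, a fit added after the data were seen in which 71.4% of all genes tested differed. In that fit Plau, Plaur and Anxa2 could pass the filter only through microglia, so their calls in it are a description too. With so many genes differing between cell types, these counts are no result about the members, and what follows gives which class was high for which gene.

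**Figure D1:**
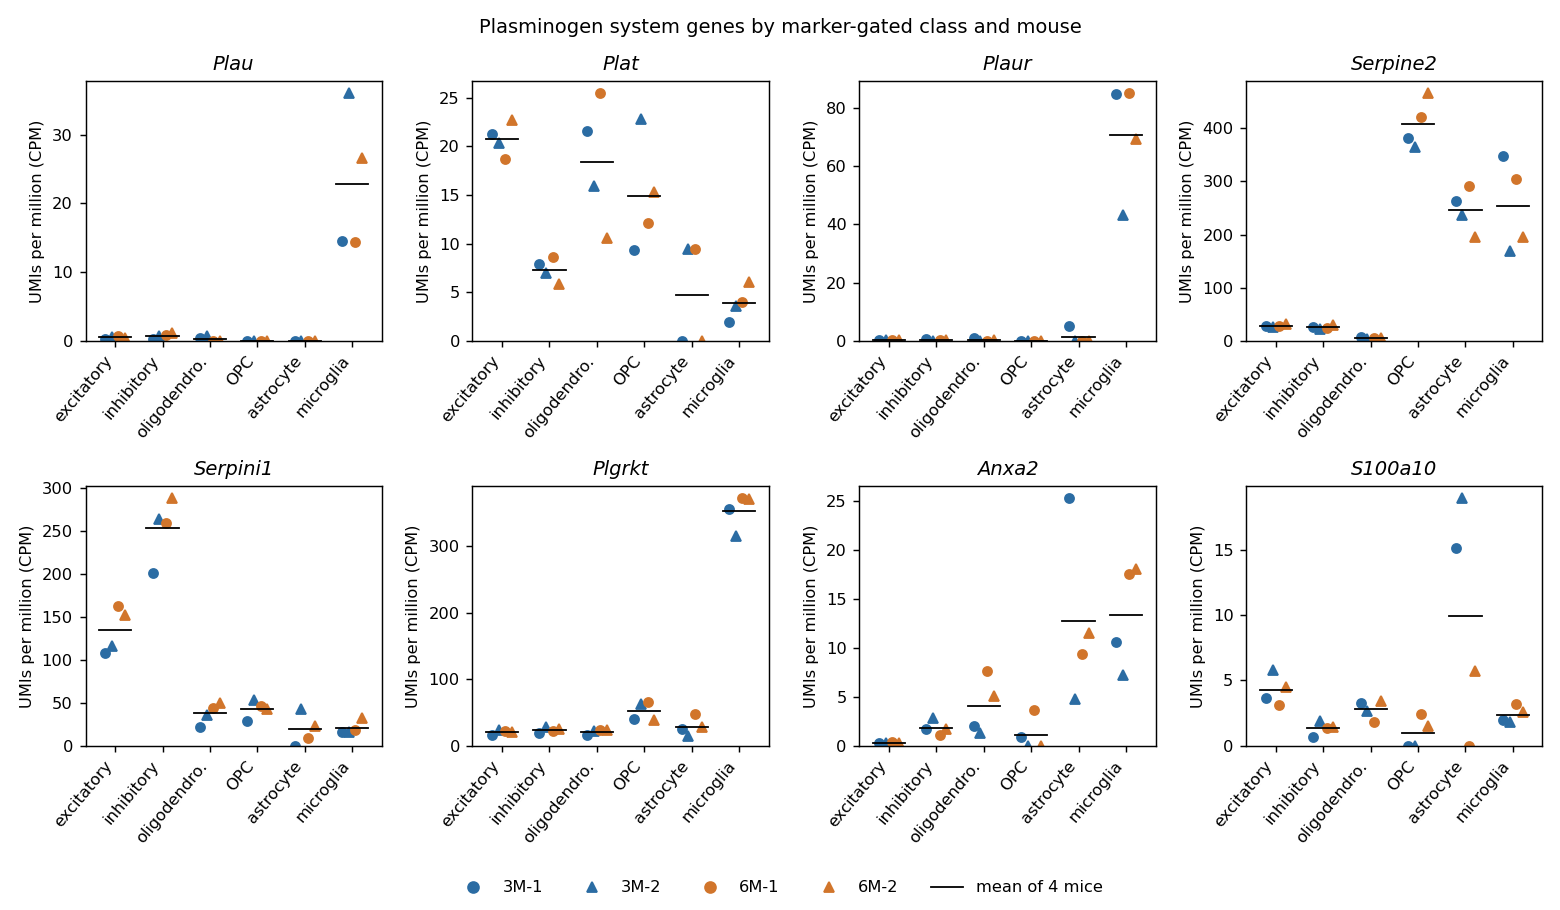
Level of each of the 8 genes (y axis, CPM of the UMIs summed per library and class) in the 6 gated classes (x axis), with 1 point for each of the 4 mice (3 and 6 months told apart by colour) and a line at their mean. Plau, Plaur and Plgrkt stood highest in microglia, Serpine2 in OPCs, astrocytes and microglia, and Serpini1 in neurons, while the points of S100a10 and Anxa2 in astrocytes rest on 0 to 5 UMIs each.

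Plau, the urokinase gene, was sparse everywhere. Microglia held 15, 20, 18 and 31 UMIs in the 4 libraries, or 14.5, 36.0, 14.3 and 26.6 CPM, from 60 nuclei in all. A single nucleus of 3M-2 held 9 of that library's 20 UMIs, and without it the CPM of 3M-2 was 19.9. Excitatory neurons gave 0.245, 0.477, 0.738 and 0.462 CPM (10, 20, 27 and 17 UMIs), and inhibitory neurons 0.280, 0.675, 0.860 and 1.16 CPM (2, 4, 7 and 8 UMIs). The microglial level was above every neuronal value in each mouse, at 59.0, 75.5, 19.4 and 57.5 times that of excitatory neurons in the 4 mice, with an edgeR adjusted p of 3.14e-12 for the class difference. Against excitatory neurons alone the log2 difference was 4.84 ± 0.37 (SE, edgeR adjusted p = 9.03e-13). Oligodendrocytes held 2 Plau UMIs in all, and OPCs and astrocytes 0, where 3 counts over the 4 libraries would be 0.920 and 4.35 CPM. With so little astrocyte RNA, a level of Plau as low as that of neurons was not detectable there.

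The receptor gene Plaur was more nearly restricted to microglia than Plau. Microglia held 88, 24, 107 and 81 UMIs, or 84.8, 43.2, 85.1 and 69.4 CPM, from 235 nuclei. Excitatory neurons held 3, 10, 6 and 9 UMIs (0.0735 to 0.244 CPM), inhibitory neurons 7 in all, oligodendrocytes 3, astrocytes 1 and OPCs 0. The ratio of microglia to excitatory neurons was 1154, 181, 519 and 284 in the 4 mice, with 3M-2 the lowest microglial value (edgeR, adjusted p = 1.32e-20 against the other classes). Against excitatory neurons alone the log2 difference was 7.90 ± 0.29 (SE, edgeR adjusted p = 2.65e-20). When each nucleus was thinned to 1000 UMIs, 6.67%, 3.25%, 7.29% and 7.44% of microglia had a Plaur UMI, against 0% to 0.0448% of excitatory neurons. Before thinning, the microglial shares were 14.6%, 5.65%, 12.4% and 11.3% at median depths of 1422 to 2220 UMIs, and those of excitatory neurons 0.0947% to 0.300% at 8216 to 11766 UMIs. Thinning left out 25, 77, 26 and 8 microglia that were shallower.

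The few Plau molecules in neurons were examined because neurons outnumber microglia. They came from 86 nuclei, 83 of which had 1 Plau UMI, and 1 of which had a Plaur UMI. After thinning, 0.0316% to 0.0667% of excitatory neurons had a Plau UMI, not above the 0% to 0.144% of oligodendrocytes, whereas microglia had 1.38%, 2.17%, 1.22% and 2.36%. Pooled over libraries, excitatory neurons had 0.474 CPM (exact Poisson 95% interval 0.372 to 0.595) and oligodendrocytes 0.197 CPM (0.0239 to 0.712), intervals that overlap and cover counting error only. Free RNA can place such UMIs in any nucleus, its level was not measured, and at this depth neither neuronal class as a whole was told apart from oligodendrocytes. Subclasses were not alike. Pvalb interneurons pooled to 1.33 CPM (0.743 to 2.19), the only subclass interval wholly above that of oligodendrocytes. By mouse they had 0.361, 1.18, 1.28 and 2.46 CPM on 1, 3, 4 and 7 UMIs. In 3M-1 this was below the 0.407 CPM of oligodendrocytes, which rests on 1 UMI. Layer 4 neurons had 1.09 CPM (0.646 to 1.72) and layer 2/3 neurons 0.0524 CPM (0.00133 to 0.292). These subclasses were singled out after their values were seen. Excitatory neurons held 74 Plau to 28 Plaur UMIs (3.33, 2.00, 4.5 and 1.89 Plau UMIs per Plaur UMI in the 4 libraries), inhibitory neurons 21 to 7, and microglia 84 to 300 (0.170, 0.833, 0.168 and 0.383). In each library the excitatory ratio was above the microglial ratio. Excitatory nuclei with a Plau UMI had microglial gate markers at 142 CPM and those without at 104 CPM (67.2% and 60.5% of nuclei with any marker). For inhibitory nuclei these values were 151 and 115 CPM (78.9% and 55.3% of nuclei), at median depths of 9439 and 7946 UMIs. Scrublet called 5 of the 86 nuclei doublets, and the part of microglial RNA in this signal was not tested. Of the 67 excitatory nuclei, 27 had no subclass and 18 were in layer 4, and of the 19 inhibitory nuclei, 13 were Pvalb interneurons.

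Plat, the tPA gene, had another distribution, with transcripts in neurons and the oligodendrocyte lineage. Excitatory neurons gave 21.3, 20.3, 18.7 and 22.7 CPM, oligodendrocytes 21.6, 15.9, 25.4 and 10.6 CPM, and OPCs 9.29, 22.8, 12.1 and 15.3 CPM. These 3 classes overlapped, whereas inhibitory neurons, at 5.79 to 8.60 CPM, lay below excitatory neurons in every mouse. The order per nucleus was another one, since neuronal nuclei were deeper. Per 1000 nuclei, excitatory neurons held 235 Plat UMIs, inhibitory neurons 64.4, OPCs 56.2 and oligodendrocytes 43.5. Against the mean of the other classes the log2 difference was 1.68 ± 0.18 in excitatory neurons (SE, edgeR adjusted p = 7.09e-10) and 1.33 ± 0.24 in oligodendrocytes (adjusted p = 1.93e-05). Microglia were lower, at 1.93, 3.60, 3.98 and 6.00 CPM (log2 difference −1.87 ± 0.50, edgeR adjusted p = 0.00151), a call lost without 3M-2 (adjusted p = 0.0716). Astrocytes had 0, 9.48, 9.41 and 0 CPM on very few UMIs. Endothelial, mural and fibroblast-gated nuclei, pooled as vascular after the values were seen and numbering 9 to 30 per library, gave 238, 49.6, 124 and 312 CPM of Plat on 4, 1, 6 and 18 UMIs. Added as another class, they were higher than the rest by 3.67 ± 0.50 on the log2 scale (edgeR, adjusted p = 2.04e-07, where 17% of all genes tested were called), on few nuclei.

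Of the inhibitors, Serpine2 had its highest CPM in the glial classes other than oligodendrocytes. OPCs gave 383, 365, 421 and 466 CPM, astrocytes 263, 237, 292 and 196 CPM, and microglia 348, 169, 305 and 195 CPM. The OPC values lay above all others, while those of astrocytes and microglia overlapped. Excitatory neurons, at 25.3 to 32.0 CPM, and inhibitory neurons, at 21.8 to 29.4 CPM, overlapped each other, and oligodendrocytes had 3.98 to 7.74 CPM. Glial nuclei were shallower, so the classes lay closer per nucleus. Per 1000 nuclei, OPCs held 1616 Serpine2 UMIs, astrocytes 803, microglia 518, excitatory neurons 314, inhibitory neurons 223 and oligodendrocytes 13.2. Against the mean of the other classes Serpine2 was higher by 3.04 ± 0.11 on the log2 scale in OPCs, 2.09 ± 0.20 in astrocytes and 1.91 ± 0.11 in microglia (SE, edgeR adjusted p = 1.95e-22, 1.64e-10 and 1.52e-16). The log2 difference in oligodendrocytes was −4.17 ± 0.19 (edgeR, adjusted p = 2.19e-19), so that the OPC and the mature oligodendrocyte stood at opposite ends for this gene.

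Among the 6 classes Serpini1 was highest in neurons. Inhibitory neurons gave 201, 264, 259 and 287 CPM and excitatory neurons 108, 116, 162 and 151 CPM. The inhibitory value was the higher in each of the 4 mice. OPCs (28.8 to 52.7 CPM) and oligodendrocytes (21.2 to 49.8 CPM) overlapped, microglia had 15.4 to 32.6 CPM, and astrocytes 0 to 42.7 CPM. The log2 difference from the mean of the other classes was 2.78 ± 0.10 in inhibitory neurons (SE, edgeR adjusted p = 2.62e-22) and 1.90 ± 0.10 in excitatory neurons (adjusted p = 1.61e-17), against −1.99 ± 0.23 in microglia (adjusted p = 3.12e-09) and −1.77 ± 0.39 in astrocytes (adjusted p = 4.91e-04). The few vascular nuclei gave 417, 149, 248 and 156 CPM of Serpini1 on 7, 3, 12 and 9 UMIs (log2 difference 1.21 ± 0.37 as an added class, edgeR adjusted p = 0.0188). Of these 31 UMIs, 30 were in mural nuclei, 1 in endothelial nuclei and 0 in fibroblasts. Mural nuclei gave 478, 269, 396 and 300 CPM, above inhibitory neurons in each mouse, on 7, 3, 12 and 8 UMIs.

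Among the plasminogen-binding proteins, Plgrkt had the clearest class pattern. Microglia gave 357, 315, 373 and 371 CPM. OPCs followed at 38.2 to 66.4 CPM, excitatory neurons at 16.5 to 24.3 CPM, inhibitory neurons at 19.8 to 27.7 CPM and oligodendrocytes at 16.3 to 23.5 CPM, the last 3 overlapping, and astrocytes spread from 14.2 to 47.0 CPM. The microglial log2 difference was 3.36 ± 0.09 (SE, edgeR adjusted p = 5.41e-26), and among the 6 classes no microglial value came near those of another. Vascular nuclei gave 59.5, 99.1, 166 and 69.3 CPM of Plgrkt on 1, 2, 8 and 4 UMIs (log2 difference 0.58 ± 0.44 as an added class, edgeR adjusted p = 0.402). Macrophage-gated nuclei gave 160, 0, 196 and 130 CPM on 4, 0, 3 and 2 UMIs.

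The annexin A2 complex was sparse. Anxa2 gave 10.6, 7.20, 17.5 and 18.0 CPM in microglia on 11, 4, 22 and 21 UMIs (log2 difference 2.33 ± 0.36, edgeR adjusted p = 7.18e-07) and 0.221 to 0.382 CPM in excitatory neurons (−3.54 ± 0.48, adjusted p = 6.63e-08). Every microglial value was above every excitatory value and above those of inhibitory neurons (1.11 to 2.87 CPM). The call of higher Anxa2 in astrocytes rests on 5, 1, 1 and 2 UMIs (2.55 ± 0.76, edgeR adjusted p = 0.00880) and is lost without 3M-1 (adjusted p = 0.271), and the call in oligodendrocytes (0.84 ± 0.37, adjusted p = 0.0472) was lost under several settings. In vascular nuclei Anxa2 had 0, 99.1, 145 and 86.6 CPM on 0, 2, 7 and 5 UMIs (log2 difference 4.24 ± 0.68 as an added class, edgeR adjusted p = 4.63e-06). Most captured UMIs of S100a10, the partner of Anxa2, were in excitatory neurons, which gave 3.65, 5.82, 3.11 and 4.48 CPM on 149, 244, 114 and 165 UMIs, against 0.701 to 1.86 CPM in inhibitory neurons, 1.80 to 3.18 CPM in microglia and 1.84 to 3.41 CPM in oligodendrocytes, both of which overlapped the excitatory range. Astrocytes had 15.1, 19.0, 0 and 5.75 CPM of S100a10 on 3, 4, 0 and 1 UMIs. Between microglia and excitatory neurons alone, the log2 difference was 4.80 ± 0.40 for Anxa2 and −1.36 ± 0.44 for S100a10 (SE, edgeR adjusted p = 6.65e-12 and 0.00670), the latter on 1 to 4 microglial UMIs per library and with microglia the higher in 6M-1.

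The level per molecule and the amount captured gave different orders, because excitatory neurons held 71.5% to 80.9% of the UMIs of all genes in the gated nuclei and microglia 1.07% to 2.45%. Of the Plau UMIs, microglia held 46.8% on average over the 4 libraries (34.6% to 54.4%) and excitatory neurons 40.5% (29.8% to 51.9%). These shares are of all gated nuclei. With the 6 classes given equal weight and the others left out (the share of their summed CPM), the microglial share of Plau was 93.3%. Leaving out the other classes without weighting moved no mean share of the 8 genes by more than 2.75 percentage points, the largest being that of Plat in excitatory neurons. For Plaur the microglial share was 85.4% as captured (70.6% to 93.0%) and 97.7% with equal weights. Of the Serpine2 UMIs, excitatory neurons held 55.8% as captured, OPCs 16.8%, microglia 13.2% and astrocytes 2.17%, whereas with equal weights OPCs had 42.6%, microglia 25.8%, astrocytes 25.5% and excitatory neurons 2.90%. Excitatory neurons likewise held 55.7% of the captured Plgrkt UMIs and 4.18% with equal weights, where microglia had 70.9%. The excitatory share of Plat was 84.6% as captured and 30.4% with equal weights, and that of Serpini1 72.3% and 26.7%. For S100a10 the excitatory share was 86.7% and 20.8%, and for Anxa2 the inhibitory share was 25.5% and 7.28%. Shares as captured follow the mix of nuclei in the chosen tissue pieces, and astrocytes were 0.543% to 1.10% of the gated nuclei.

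**Figure D2:**
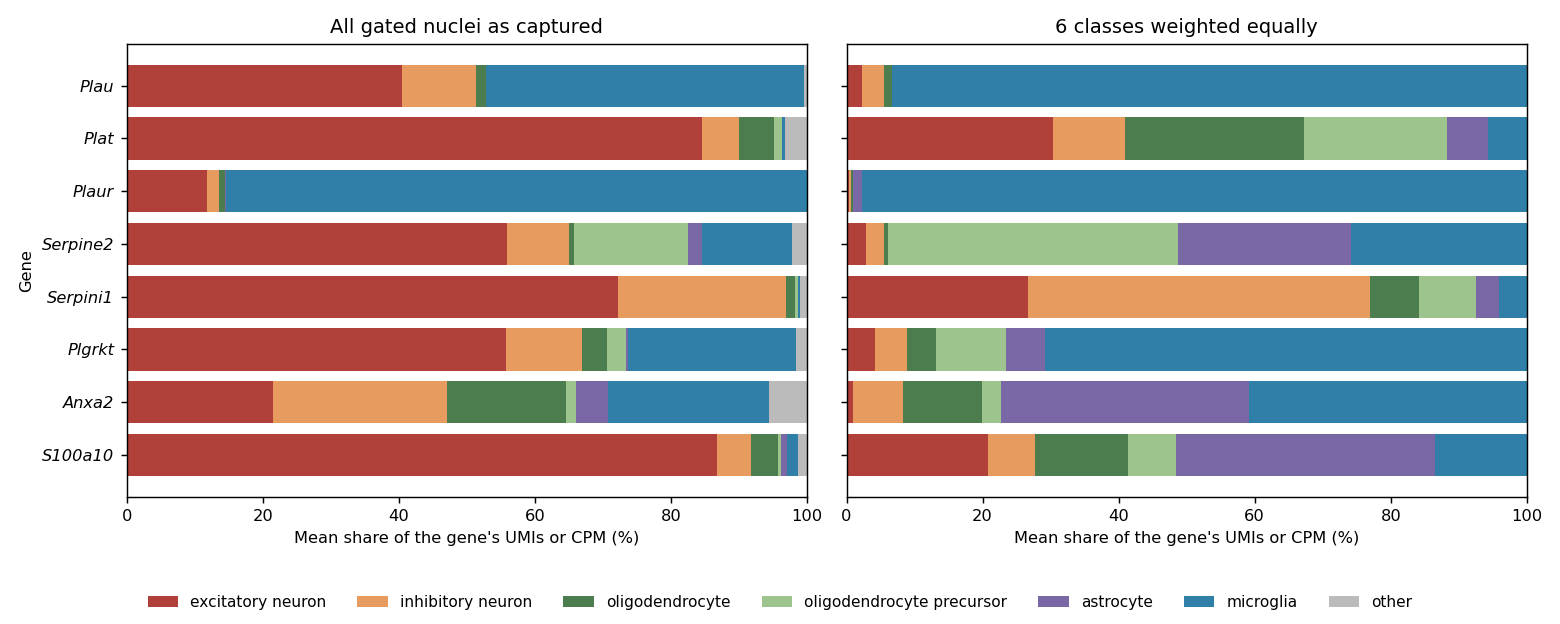
Share of each gene's UMIs, or of its summed CPM on the right, by class (x axis, percent, mean of the 4 libraries) for the 8 genes (y axis), with all gated nuclei as captured and with the 6 classes weighted equally. The excitatory share of Serpine2 fell from 55.8% to 2.90% and the microglial share of Plau went from 46.8% to 93.3% between the weightings.

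Within neurons, the inhibitor Serpine2 was far from uniform. Excitatory nuclei were divided by markers into layer 2/3, layer 4, layer 5, layer 6 corticothalamic and Tshz2 subclasses, inhibitory nuclei into Pvalb, Sst, Vip and Lamp5 interneurons, and each subclass was compared with the mean of the others by the same test (14637 and 10523 genes). No subclass was given to 5607 of the 13767 excitatory and 966 of the 3214 inhibitory nuclei. These nuclei held 2023 of the 4326 excitatory and 338 of the 717 inhibitory Serpine2 UMIs. The subclasses are thus only a part of each class. Layer 5 neurons gave 72.8, 78.2, 63.7 and 73.9 CPM of Serpine2, and layer 6 corticothalamic neurons 3.97, 4.91, 2.82 and 3.36 CPM, a ratio of 15.9 to 22.6 within mice. Per 1000 nuclei, layer 5 neurons held 1046 Serpine2 UMIs, above the 803 of astrocytes and the 518 of microglia. The log2 difference from the other subclasses was 2.52 ± 0.11 in layer 5 and −2.87 ± 0.18 in layer 6 corticothalamic neurons (SE, edgeR adjusted p = 8.27e-14 and 3.45e-12). Layer 2/3 (16.8 to 20.2 CPM) and layer 4 (7.46 to 16.2 CPM) lay between these, and Tshz2 neurons had 21.7, 24.9, 39.7 and 32.2 CPM (0.73 ± 0.16, edgeR adjusted p = 0.00206).

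Among interneurons, Serpine2 was highest in Vip cells, at 134, 59.3, 72.9 and 62.9 CPM. Per 1000 nuclei, Vip cells held 599 Serpine2 UMIs, above the 518 of microglia. Pvalb interneurons gave 6.50, 8.65, 7.03 and 4.56 CPM and Lamp5 interneurons 5.06 to 8.43 CPM, ranges that overlapped. The Vip log2 difference was 3.03 ± 0.23 (SE, edgeR adjusted p = 1.22e-12), the Pvalb difference −1.89 ± 0.27 (adjusted p = 9.57e-07) and the Lamp5 difference −1.99 ± 0.35 (adjusted p = 2.95e-05). Sst interneurons gave 21.3, 19.2, 25.0 and 42.9 CPM, and their call (0.84 ± 0.24, edgeR adjusted p = 0.00831) is lost without 6M-2 (adjusted p = 0.263). The excitatory and inhibitory class means, which overlapped, thus each averaged subclasses that differed more than 6-fold in every mouse: the Vip to Pvalb ratio was 6.85 to 20.6.

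Serpini1 varied less among subclasses. Sst interneurons had the highest values, 330, 329, 410 and 410 CPM (log2 difference 0.84 ± 0.11, SE, edgeR adjusted p = 1.06e-07), and Vip interneurons the lowest among interneurons, 105, 82.6, 201 and 196 CPM (−0.91 ± 0.14, adjusted p = 4.64e-06). Among interneurons, Vip cells were thus at the top for Serpine2 and at the bottom for Serpini1, and the ranges of Sst and Vip cells did not overlap for either gene. In Tshz2 neurons Serpini1 had 150, 162, 255 and 218 CPM (0.62 ± 0.13, edgeR adjusted p = 0.00121), a call lost when the mouse was not a block (adjusted p = 0.0620).

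S100a10 was concentrated in layer 4, at 13.4, 14.3, 4.70 and 10.8 CPM (log2 difference 1.98 ± 0.18, SE, edgeR adjusted p = 4.67e-09). Layer 6 corticothalamic neurons had 1.80 to 2.07 CPM (−1.19 ± 0.23, adjusted p = 1.79e-04). The layer 4 value was 2.57 to 7.92 times that of layer 6 in the same mouse, 6M-1 being the lowest. Plat was higher in layers 2/3 and 5 (log2 differences 0.44 ± 0.11 and 0.43 ± 0.11, edgeR adjusted p = 0.00257 and 0.00459) and lower in layer 4 and layer 6 corticothalamic neurons (−0.53 ± 0.12 and −0.47 ± 0.11, adjusted p = 0.00128 and 0.00125), and among these subclasses its mean ranged from 14.0 CPM in layer 4 to 24.4 CPM in layer 5. Plgrkt was higher in layer 4 by 0.44 ± 0.09 (edgeR, adjusted p = 3.78e-04). Over the 9 subclasses 19 member calls were made, with 1 of 5 members called in layer 2/3 (34.8% of all genes), 5 in layer 4 (40.7%), 2 in layer 5 (23.8%), 3 in layer 6 corticothalamic (39%) and 2 in Tshz2 neurons (19.5%), and of 3 tested in interneurons, 1 in Lamp5 (26.5%), 1 in Pvalb (36.4%), 2 in Sst (22.6%) and 2 in Vip (23.3%). Anxa2 was too sparse for a test among subclasses, and 22 of its UMIs in the 4 interneuron subclasses were in Sst cells (2.34 to 10.6 CPM).

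**Figure D3:**
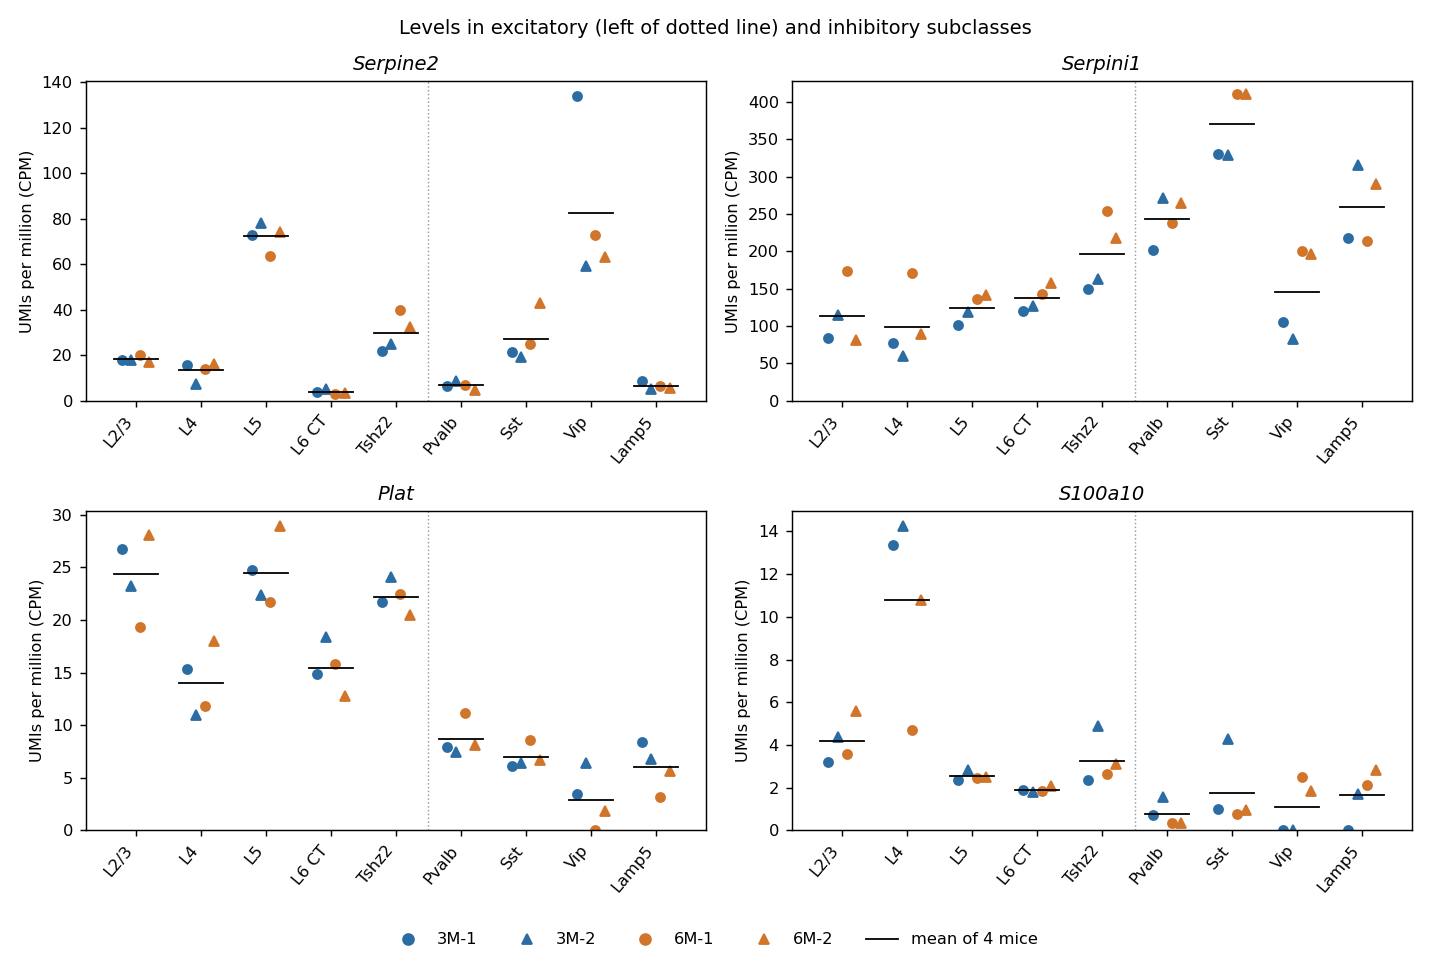
Level (y axis, CPM) of Serpine2, Serpini1, Plat and S100a10 in 5 excitatory and 4 inhibitory subclasses (x axis), 1 point for each of the 4 mice and a line at their mean. Serpine2 stood apart in layer 5 (63.7 to 78.2 CPM) and Vip cells (59.3 to 134 CPM), and S100a10 in layer 4.

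Disease-associated microglia (DAM) are an activated state known from models of neurodegeneration. Microglia with at least 3 markers of a DAM list, which held Itgax, Cst7, Lpl, Axl, Clec7a and Spp1 among others and none of the 8 members, were compared with the other microglia of the same mouse. The gate took 97, 45, 137 and 105 nuclei (384 of 2057), and left 363, 309, 547 and 454. It is a threshold on a continuous count, with 132 gated nuclei at exactly 3 markers and 309 other microglia at exactly 2, and gated nuclei were deeper, with median UMIs of 2030 to 2624 against 1340 to 2134.

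Plau, Plaur and Serpine2 were higher in DAM-gated microglia, and Plgrkt did not pass the test. For Plau the gated nuclei gave 31.2, 89.0, 32.2 and 82.8 CPM and the other microglia 8.97, 24.2, 8.45 and 9.98 CPM. For Plaur the values were 226, 138, 142 and 136 CPM against 38.4, 22.0, 66.6 and 49.9 CPM. For Serpine2 they were 697, 237, 419 and 294 CPM against 233, 154, 267 and 166 CPM. All 3 genes were higher in the gated nuclei of each of the 4 mice, and for Plau and Plaur the ranges did not overlap. The log2 differences were 2.24 ± 0.36 for Plau, 1.75 ± 0.21 for Plaur and 0.99 ± 0.13 for Serpine2 (SE, edgeR adjusted p = 6.78e-06, 1.90e-08 and 1.86e-07), so 3 of 4 members tested were called where 12.3% of 7169 genes were. The median log2 difference was 1.37 over the 4 members and 0.0022 over all genes tested. Plau could pass the filter on low values only through the gated nuclei, and Plaur not through the other microglia alone. Their calls, the count of members called and this median thus follow in part from the filter and are given as a description. Plgrkt had 394, 336, 396 and 350 CPM against 345, 310, 366 and 377 CPM (0.07 ± 0.11, edgeR adjusted p = 0.778). Over the 4 ways of leaving out 1 library the differences were 1.84 to 2.35 for Plau, 1.42 to 2.08 for Plaur and 0.69 to 1.14 for Serpine2.

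Of the 60 microglia with a Plau UMI, 13 (21.7%) also had a Plaur UMI, against 222 of the 1997 without one (11.1%). The nuclei with Plau were deeper, with a median of 2361 UMIs against 1824, and no test was made over nuclei. Of the same 60, 24 had a Serpine2 UMI and 5 had all 3. Among all microglia, 235 had Plaur, 634 had Serpine2 and 106 had both. DAM-gated nuclei were 34 of the 60 with Plau, 109 of the 235 with Plaur and 202 of the 634 with Serpine2. No nucleus held more than 9 Plau or 4 Plaur UMIs, so the lack of a partner's UMI in a nucleus does not show that its transcript was absent.

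**Figure D4:**
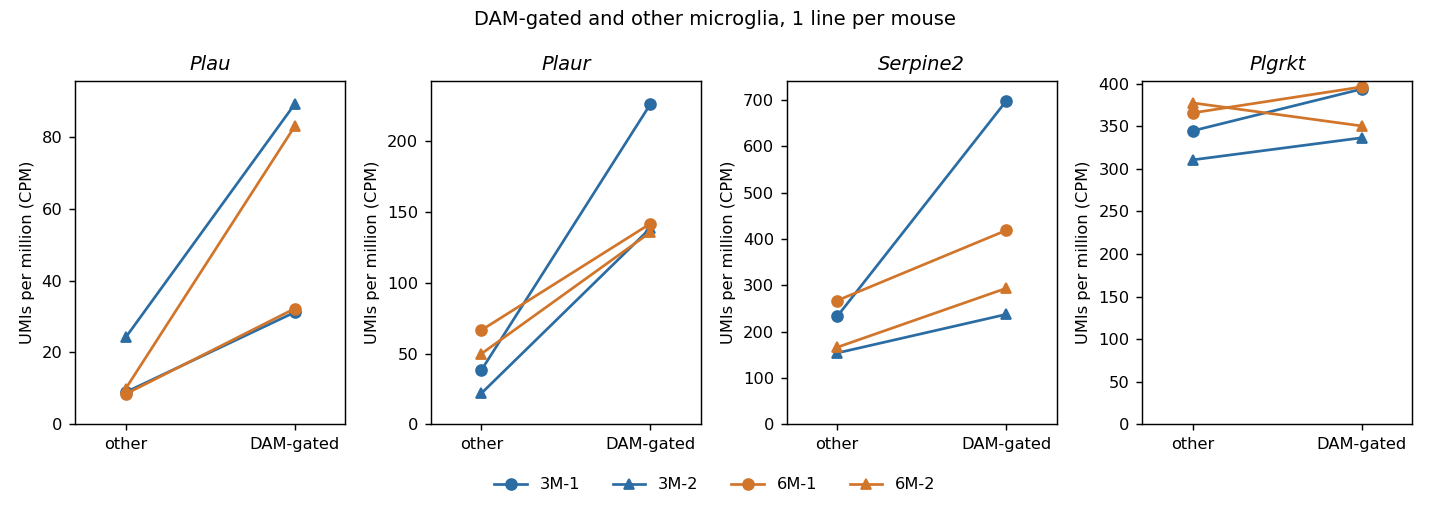
Level (y axis, CPM) of Plau, Plaur, Serpine2 and Plgrkt in other microglia and in DAM-gated microglia (x axis), 1 line for each of the 4 mice. The lines rose in all 4 mice for Plau, Plaur and Serpine2, and did not all go the same way for Plgrkt.

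Whether supply changed between 3 and 6 months was tested within each class, 2 mice against 2, by edgeR's quasi-likelihood test. None of 29 member and class pairs was called (smallest adjusted p = 0.498), 3 had an unadjusted p under 0.05, and DESeq2 called 0. Over all genes the share called was 0.00523% in excitatory neurons, 0% in inhibitory neurons, OPCs and astrocytes, 0.0733% in oligodendrocytes and 0.299% in microglia, against which 0 member calls says little. The number of genes with an unadjusted p under 0.05 was 1103, 663, 379, 174, 921 and 1092 in the same order. An exact permutation test on 2 against 2 values cannot go below p = 0.333.

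Levels of Plau, Plaur and Serpine2 at the 2 ages overlapped in microglia. Plau had 14.5 and 36.0 CPM at 3 months and 14.3 and 26.6 CPM at 6 months (log2 difference of 6 over 3 months −0.20 ± 0.46, SE, edgeR adjusted p = 0.942). Plaur differed by 0.17 ± 0.28 (edgeR, adjusted p = 0.905), Serpine2 by −0.11 ± 0.27 (adjusted p = 0.944) and Plgrkt (357 and 315 against 373 and 371 CPM) by 0.12 ± 0.15 (adjusted p = 0.868). The 3-month mice differed from each other as much as the ages did, with 348 and 169 CPM of Serpine2 and 84.8 and 43.2 CPM of Plaur in 3M-1 and 3M-2. Without 3M-2, the log2 difference of Serpine2 was −0.52 (edgeR, adjusted p = 0.0106), a call that rests on 1 library at 3 months. In OPCs, the class with most Serpine2 per molecule, the difference was 0.26 ± 0.16 (adjusted p = 0.997).

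By adjusted p, Anxa2 in oligodendrocytes was lowest among the classes, and Plaur in other microglia was lowest once subclasses and microglial states were included. By unadjusted p, Serpini1 came nearest to a change with age. In excitatory neurons it had 108 and 116 CPM at 3 months and 162 and 151 CPM at 6 months (log2 difference 0.47 ± 0.13, SE, unadjusted p = 0.00715, edgeR adjusted p = 0.664). In oligodendrocytes it had 21.2 and 35.2 CPM against 44.2 and 49.8 CPM (0.70 ± 0.25, edgeR adjusted p = 0.519). In microglia it had 15.4 and 16.2 CPM against 18.3 and 32.6 CPM (0.66 ± 0.41, edgeR adjusted p = 0.658). Neuronal subclasses come from the same 4 mice, so counts over them are not separate observations of an age difference. Of all genes, 566 of 14575 in layer 6 corticothalamic neurons and 953 of 13907 in layer 5 had an unadjusted edgeR p under 0.05, the lowest and highest shares. For Serpini1 the difference was above 0 in 8 of 9 subclasses, with an unadjusted p under 0.05 in 5. None was called where 0% of all genes were called in each subclass. The largest was in Vip interneurons (105 and 82.6 against 201 and 196 CPM, 1.09 ± 0.23, edgeR adjusted p = 0.349), followed by layer 4 (76.7 and 59.7 against 170 and 89.8 CPM, 0.97 ± 0.29, adjusted p = 0.689). In layer 4 the value of 6M-1 was far above the others, and without that library the difference was 0.42. Lamp5 interneurons went the other way (−0.07 ± 0.21, edgeR adjusted p = 0.997). Without the filter on low counts, Vip cells and layer 4 neurons were called (edgeR, adjusted p = 0.0210 and 0.00156).

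The third pair with an unadjusted p under 0.05 was Anxa2 in oligodendrocytes, with 5 and 2 UMIs at 3 months and 25 and 15 at 6 months, or 2.04 and 1.33 CPM against 7.67 and 5.12 CPM (1.76 ± 0.58, SE, edgeR adjusted p = 0.498). These counts are small. Anxa2 could pass the filter on low values in this fit only through the 6-month libraries. Its difference thus follows in part from the filter and is given as a description. Within microglial states, Plaur differed by −0.49 ± 0.28 in DAM-gated nuclei (adjusted p = 0.655) and by 0.84 ± 0.33 in other microglia (edgeR, adjusted p = 0.295), and no member was called in either state (0.117% and 0.943% of all genes). In other microglia 3M-2 had the lowest Plaur value, 22.0 CPM. Whether an age difference itself differed between classes was tested in 48 member and class pairs with an interaction term, and none was called by edgeR or DESeq2 (3 with an unadjusted p under 0.05), where the share of all genes called was 0.0327% in astrocytes, 0.085% in excitatory neurons and in microglia, 0.203% in oligodendrocytes, and 0.00654% in inhibitory neurons and in OPCs. For 18 of these pairs, those of Plau, Plaur and S100a10, a class had 0 UMIs at 1 age or both, and the interaction gives no usable value. Between microglia and excitatory neurons alone, the age difference of Plau differed by −1.04 ± 0.71 (SE, edgeR adjusted p = 0.884) and that of Plaur by −0.13 ± 0.68 (adjusted p = 1), with no member called and 0.862% of all genes called.

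**Figure D5:**
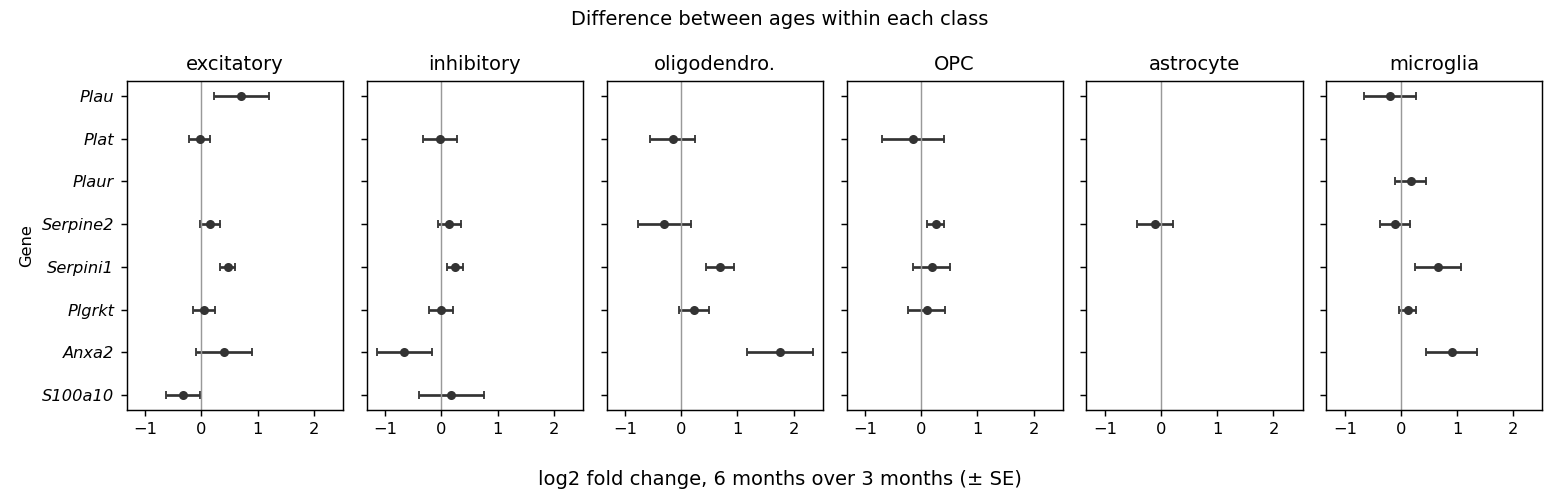
Log2 difference of 6 over 3 months (x axis, edgeR estimate with a bar of 1 SE on either side) for each gene in the 6 classes. A gene without a point did not pass the filter on low counts in that class, and no difference shown passed the test after adjustment. The largest was that of Anxa2 in oligodendrocytes (1.76), which could pass the filter there only through the 6-month libraries.

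Other genes of the pathway were taken from a list of 48 substrates, inhibitors, clearance receptors and targets, all of which had a row. Plg, the plasminogen gene itself, had 36 UMIs in all gated nuclei, 25 of them in excitatory neurons and 0 in microglia and astrocytes, and the fibrinogen genes Fga, Fgb and Fgg had 3, 0 and 0, so the substrate of the activators was nearly absent as a nuclear transcript. These 4 genes were singled out after their values were seen. Of the 26 list genes tested between classes, 13 were higher and 11 lower in microglia (32.4% and 34.6% of all genes). In excitatory neurons 13 were higher and 7 lower (37.2% and 31% of all genes), and in inhibitory neurons 9 and 11 (35.1% and 26.8%). In astrocytes the counts were 10 and 2 (15.2% and 15.3%), in OPCs 9 and 5 (23.6% and 13.5%) and in oligodendrocytes 3 and 13 (31.5% and 28.5%). For 4 list genes, Itga5, Itgam, Itgb2 and Mrc2, a class had 0 UMIs, and their tests outside microglia may be without a finite value. Any call of these genes in microglia may follow from the filter on low values, and the count of higher list genes there does not leave them out.

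The integrin chains Itgam and Itgb2, which pair as a receptor that binds uPAR, were among the list genes with the smallest adjusted p in microglia, with 1096 of the 1147 Itgam UMIs in that class (224 to 348 CPM). As for Plau and Plaur, these calls may follow from the filter on low values and are given as a description. Lrp1, the endocytic receptor that clears activator and inhibitor complexes, had 271 to 349 CPM in microglia, 264 to 275 CPM in OPCs, 161 to 254 CPM in astrocytes and 6.52 to 16.0 CPM in oligodendrocytes. It was higher in microglia by 1.37 ± 0.09, in OPCs by 1.47 ± 0.09 and in astrocytes by 0.92 ± 0.16 on the log2 scale (SE, edgeR adjusted p = 2.13e-15, 4.75e-15 and 2.77e-05), with a difference of −3.78 ± 0.14 in oligodendrocytes (adjusted p = 2.26e-22). Lrp1 and Serpine2 were thus each called higher in OPCs, astrocytes and microglia and lower in oligodendrocytes. Among tPA and plasmin targets, the NMDA receptor genes Grin1 and Grin2b were higher in excitatory neurons (3.18 ± 0.09 and 3.10 ± 0.11, edgeR adjusted p = 1.14e-24 and 5.53e-23) and so was Bdnf, whose precursor plasmin cleaves (2.67 ± 0.12, adjusted p = 2.90e-19). Among the 15 list genes tested between microglial states, Itga5, a chain of the fibronectin receptor, was higher in DAM-gated microglia by 1.86 ± 0.23 and Lrp1 by 0.46 ± 0.11, and Itgam had a difference of −0.61 ± 0.13 (edgeR, adjusted p = 1.97e-08, 0.00344 and 8.81e-04). No list gene was called with age in any class, and 10 of 21 had an unadjusted p under 0.05 in microglia, where 9.90% of all genes tested did. The interaction test called Pdgfc in oligodendrocytes (−1.27 ± 0.28, edgeR adjusted p = 0.0419).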

How the data were processed

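Nuclei from the cortex of 4 mice were captured with the 10x Genomics 3′ v3.1 chemistry. The deposited matrices give, for each nucleus, unnormalized UMI counts by gene, made for the authors by a contractor with Cell Ranger 7.0.0 per the file headers, on build mm10 (GRCm38) per the labels; the gene annotation is not given in the sources used here, and 32158 of 32285 identifiers were found in GENCODE M21. The matrices hold called nuclei, so free RNA could not be measured from empty droplets. Nuclei with more than 7000 detected genes or over 1% mitochondrial UMIs were left out, which are the authors' limits (269 nuclei). Of the 30784 barcodes, 93 sequences occurred in more than 1 library and were kept as separate nuclei.

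Each nucleus was given the class whose marker profile (12 markers a class, at least 3 of them detected) was at least 1000 times as likely as the next under a negative binomial model with 5% ambient RNA. The 5490 ungated nuclei were 2388 nearer to a mixture of classes, 1997 others below this threshold, and the rest with too few markers. Of all nuclei within the limits, gated or not, 1764 were within 10-fold of the threshold. Subclasses needed 2 markers and the DAM gate 3. Doublets were otherwise kept; Scrublet (scanpy 1.11.5) called 3.88% to 8.78% of nuclei per library, and a fit without these was tried. Counts were added up over the nuclei of a class in each library and tested with edgeR 4.0.16 (R 4.3.3): TMM factors, filterByExpr, quasi-likelihood test, Benjamini-Hochberg adjustment over all genes tested, threshold 0.05. Class, subclass, state and interaction fits had the mouse as a block, and the age fits, 2 mice against 2, had none. In the age fits, adjusted p-values measure the spread between mice of an age. In the fits with the mouse as a block, they measure how differences between classes, subclasses or states vary over these 4 mice. Intervals are exact Poisson or Wilson at 95%, and limits for a count of 0 are 3 counts; both cover counting error only. Data were simulated from each gene's mean over all sums of a fit, so without the real differences between classes, states or ages. Changes were put only into genes that were not sparse. The tests recovered 66% of genes changed 2-fold and 85% of those changed 4-fold for the class difference in microglia. They recovered 79% and 92% for DAM-gated microglia, and 53% and 88% for the age difference in excitatory neurons. The interaction test in microglia recovered fewer, 32% and 54%. These shares do not cover sparse genes or genes with a class at 0.

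Replicate numbers are shared between the ages and are the batch numbers in the labels, which do not say what the batch was. Samples of the same number did not deviate together (correlations of −0.125 in excitatory neurons to 0.00789 in microglia). The genes named are the 8 members, Gclc, up to 5 genes per comparison with the smallest adjusted p from the list of 48 pathway genes, and the 3 genes most like each member; some of the genes this rule names are not reported here. The members and lists were chosen with earlier results of these data known, so no count over them is independent support. Alternatives were DESeq2 1.42.0, median-of-ratios size factors, no filter on low counts, a stricter gate, no Scrublet doublets, no limits on nuclei, the other setting of the block, and leaving out each library; those for subclass and state ages, vascular nuclei, DAM thresholds and microglia against excitatory neurons alone were added after the data were seen. Promoter sequences were read from RefSeq windows, with a match for 5 of the 8 members, and 2 are printed.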

Additional observations from a re-analysis of the deposited data

How the results depend on the processing

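Under every alternative tried, 23 to 30 member calls were made between classes (25 as reported), 17 to 24 between subclasses (19) and 3 or 4 between microglial states (3). No log2 difference that was called changed sign. Of the single genes recomputed under an alternative, 1918 values kept their side of the threshold, 21 lost a call and 20 gained one; values with a standard error above 1 were left out. The calls of the 7 members in microglia were also made against excitatory neurons alone. There Plau, Plaur and Anxa2 could pass the filter only through microglia, so their calls in that fit add no support. The calls lost under the most settings were those of Anxa2 in oligodendrocytes and Plgrkt in astrocytes, whose adjusted p was 0.0357 as reported and 0.0551 to 0.190 where it was lost; the cause was not tested.

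With age, 0 members were called by each of the tools and settings run for classes, except that leaving out 1 library gave 0 to 2 calls: without 3M-2 these were Serpine2 in microglia (−0.52) and Serpini1 in inhibitory neurons (0.42, edgeR adjusted p = 0.00199). For subclasses, no filter on low counts gave 2 calls and leaving out 1 library 0 to 1, Serpini1 in Vip interneurons without 3M-1 (adjusted p = 0.0327) or in layer 4 without 6M-2 (adjusted p = 0.00414). For microglial states leaving out 1 library gave 0 to 1, Serpine2 in DAM-gated nuclei without 3M-2 (−0.95, edgeR adjusted p = 0.00201).

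With the replicate number as a block in the age fits, 0 members were called in classes, subclasses and states, as without it. Without the mouse as a block, 24 calls were made between classes, 17 between subclasses, 3 between states and 0 in the interaction fit. Samples that share a number did not deviate together over all genes. An effect of the labelled batch on some of the genes was not tested. Over all genes the block gave 1 call in excitatory neurons (1 without it), 38 in oligodendrocytes (9) and 17 in astrocytes (0), and a crossed pairing gave 60 in excitatory neurons.

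The shares of captured UMIs moved when the 6 classes were weighted equally and the rest left out: Plau in microglia to 93.3%, Plaur in microglia to 97.7%, Anxa2 in inhibitory neurons to 7.28%, and in excitatory neurons Plat to 30.4%, Serpine2 to 2.90%, Serpini1 to 26.7%, Plgrkt to 4.18% and S100a10 to 20.8%. Without the nucleus with most Plau UMIs the microglial share of Plau was 43.3%. Depth limited astrocytes (208 nuclei), where a gene with the neuronal level of Plau would have gone uncounted.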

Other observations

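The genes whose levels were most like those of each member over the 24 sums of class and library (Pearson correlation of log2 CPM, gate markers left out, a description without a test, since sums of 1 mouse share a library and most of the variation is between cell classes) differed by member. For Plau they were Gm15503 (0.962), Plcb2 (0.949) and Spns3 (0.944), and for Plaur Crybb1 (0.966), Hexa (0.952) and Slamf6 (0.950). For Plgrkt they were Dyrk4 (0.952), Slc16a6 (0.944) and Mtr (0.944). For Serpine2 they were Itpkb (0.951), Gm50048 (0.950) and Chst11 (0.941), and for Serpini1 Slc12a5 (0.961), the potassium-chloride cotransporter of neurons, and Clvs1 (0.957). For Plat they were Nt5e (0.946), Gm37982 (0.925) and Klhl11 (0.924), and for Anxa2, where the likeness was weaker, Dapp1 (0.889), Mapk3 (0.852) and Tceanc2 (0.850).

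The nuclei that no gate took held 37 Plau and 137 Plaur UMIs. Their levels were 0.322, 0.745, 0.477 and 1.81 CPM of Plau and 1.61, 1.77, 4.43 and 3.63 CPM of Plaur in the 4 libraries, so the ratio of activator to receptor there, 0.270 over the libraries, was near that of microglia (0.280) and not that of excitatory neurons (2.64). Serpine2 had 41.2 to 51.9 CPM and Serpini1 124 to 173 CPM in these nuclei.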
